A study of Mus musculus with 8 samples.

Results

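The microRNAs (miRNAs) miR-21, miR-221 and miR-222, known for their roles in cell growth and tissue fibrosis, were examined in the livers of diabetic mice. They were chosen by name, as the non-control spots whose target is mmu-miR-21, mmu-miR-221 or mmu-miR-222, and make up 3 of the 567 mouse miRNAs on the array. The diabetic animals were 4 db/db mice, in which both copies of the leptin receptor gene carry the db mutation, and which become obese and insulin resistant. They were set against 4 db/+ mice, which carry 1 mutant copy and were the non-diabetic controls, so both groups hold the mutation in at least 1 copy. The mice are described as C57BL/KsJ, and their age when the livers were taken is not given in the sources used here. RNA of whole frozen liver was hybridised in 1 colour, with 1 animal per array. A liver of this kind holds hepatocytes, endothelial cells, stellate cells and leukocytes together, so fewer cells of a type and less RNA per cell cannot be told apart.

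A miRNA guides a silencing complex to messenger RNAs that pair with its seed, the bases near its 5′ end, and lowers their stability or translation. miR-21 is made from a hairpin inside the gene Vmp1, is abundant in many tissues, rises in tumours and in fibrosis, and is known to repress Pdcd4, an inhibitor of translation. miR-221 and miR-222 are neighbours on the X chromosome, are made from 1 transcript, and are known to repress Cdkn1b, an inhibitor of the cell cycle, and Kit, a growth factor receptor. All of them are known to be raised in human liver tumours.

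The mature sequences show which members can act through the same sites. They are those of RefSeq for assembly GRCm38.p6, 5′ to 3′, with the seed (bases 2 to 8) in capitals.

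miR-21: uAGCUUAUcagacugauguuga

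miR-221: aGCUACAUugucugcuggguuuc

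miR-222: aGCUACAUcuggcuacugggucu

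miR-221 and miR-222 shared their first 8 bases and so their whole seed, and matched at 11 of 23 positions over the full length, whereas miR-21 had another seed. On GRCm38.p6, miR-21 lies at chr11:86584120-86584141 on the minus strand, within Vmp1. miR-221 lies at chrX:19146307-19146329 and miR-222 at chrX:19146901-19146923, both on the minus strand with 594 bases between their starts. The other RefSeq mouse miRNAs with these seeds, miR-21c for the seed of miR-21 and miR-1928 for that of miR-221 and miR-222, were not on the array.

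Each member was measured by 2 probes of 10 spots each. A level is given here as scaled signal: the background-subtracted spot signal, averaged over spots and probes, divided by the array's median, which was taken over the 89 miRNAs that every array detected, and it is mostly given on a log2 scale. Probes differ in brightness, so each miRNA was compared only with itself across arrays. The db/db arrays were close to each other in brightness, with scaling factors of 0.847 to 1.06, a 1.26-fold range. The db/+ arrays were not, with factors of 5.63, 0.564, 1.58 and 0.21 for replicates 1 to 4, a 26.8-fold range. They detected 91 to 255 mouse miRNAs each, against 133 to 166 on the db/db arrays. The 8 arrays stood on 1 slide, the db/db samples in its first row and the db/+ samples in its second, so strain and slide row cannot be told apart. miR-122, the dominant miRNA of hepatocytes and the check of the tissue, had a log2 level of 15.48 ± 0.06 in db/db and 15.38 ± 0.7 in db/+ livers (SD, n = 4 each).

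miR-21 was lower in the db/db livers. Its scaled signal was 8663, 7818, 7506 and 7652 on the 4 db/db arrays, against 12853, 17172, 11318 and 13510 on the 4 db/+ arrays. Every db/db value lay below every db/+ value, and the db/+ values were more spread out, with replicate 2 the highest. On the log2 scale the level averaged 12.95 ± 0.09 in db/db and 13.73 ± 0.25 in db/+ livers (SD, n = 4 each). The difference was -0.78 ± 0.16 (SE), a 1.72-fold lower level, with a 95% confidence interval of -1.14 to -0.42. In limma, fitted over all 127 tested miRNAs with Benjamini-Hochberg adjustment, the adjusted p was 0.00846. The exact two-sided permutation p for miR-21 alone was 0.0286, the smallest that the 70 splits of 8 arrays allow.

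The same comparison passed the threshold (adjusted p under 0.05) for 19 of the 127 tested miRNAs (15%), of which 12 (9.45%) were higher and 7 (5.51%) lower in db/db livers. Those splits were 6 higher and 8 lower with scaling to the 75th percentile, 9 and 8 after quantile normalization, and 10 and 11 after cyclic loess. Among only the 89 miRNAs detected on all 8 arrays, 8 were higher and 6 lower. Each of the 127 was detected on all 4 db/db arrays, and none entered the test through db/+ alone. The shares thus rest on a set of miRNAs that db/db determined. Values of the strains did not overlap for 29 miRNAs (22.8%), of which 9 (7.09%) were lower in db/db. miR-21 stood 10th by p and had the 5th most negative difference. The median difference over all tested miRNAs was 0.15. Of the 3 members, 2 were tested and 1 passed, too few for a share to be set against that background.

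The call for miR-21 was lost after quantile normalization, with a difference of -0.29 (limma adjusted p = 0.308), and with normexp background correction, with -0.53 (limma adjusted p = 0.175). It was lost as well with raw median intensities (-0.48), with the authors' deposited table (-0.68), without scaling (-0.82) and without the filter on dim miRNAs (-0.78), and the difference was negative in all 29 alternatives, from -0.95 to -0.29. Many of these left out arrays of the same set, or could not move the difference of a miRNA this bright, such as another floor.

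miR-221 did not pass the test. Its scaled signal was 58, 69.6, 64.9 and 76.7 on the db/db arrays, against 59.2, 39.8, 75.2 and 48.7 on the db/+ arrays. The strains overlapped: db/+ replicates 1 and 3 were within the db/db range, and db/+ replicates 2 and 4 lay below it. The log2 level averaged 6.07 ± 0.17 in db/db and 5.76 ± 0.39 in db/+ livers (SD, n = 4 each), a difference of 0.31 ± 0.21 (SE; 95% confidence interval -0.16 to 0.77, limma adjusted p = 0.348). As a fold, the interval ran from 0.898 to 1.7, which leaves room for a small decrease as well as for an increase. miR-221 was detected on all 4 db/db arrays and on 3 of 4 db/+ arrays, missing on replicate 4, the dimmest. Without db/+ replicates 1 and 3, the 2 brightest of that strain, a choice made after the data were seen, the difference was 0.61 (limma adjusted p = 0.0332), but that fit leaves 2 db/+ arrays, on 1 of which miR-221 was not detected, and miR-221 had entered the test through db/db. Without db/+ replicates 2 and 4 the difference was 0.00 (limma adjusted p = 0.984). Its sign turned with normexp (-0.14) and with raw median intensities (-0.03).

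miR-222 was at the edge of detection and was not tested. It was called detected on 1 of 4 db/db arrays, replicate 3, and on 2 of 4 db/+ arrays, replicates 1 and 3. Its spots were well above background on 0 of 4 db/db arrays and on 1 of 4 db/+ arrays, replicate 1, so its level was not measured in either strain as a whole and no fold is given. The scaled signal was 7.93, 10.5, 10.2 and 9.3 on the db/db arrays, against 7.39, -1.78, 8.31 and -4.12 on the db/+ arrays, where the values below 0 mean that the spots were dimmer than the subtracted background. Those 2 arrays were the ones with the lowest scaling factors, 0.564 and 0.21. With values under the floor of 4.59 scaled units raised to it, the log2 values averaged 3.24 ± 0.18 in db/db and 2.58 ± 0.45 in db/+ livers (SD, n = 4 each). The distance of 0.65 between these means is no measured fold, and the floor set part of it: it was 2.16 with a lower floor of 0.566 and 0.00 with a higher floor of 25.9. Of the pair with a shared seed, only miR-221 was thus bright enough for the test. The miR-222 probes pair with 13 and 14 bases, against 19 and 20 for the miR-221 probes, so this contrast does not rank their levels.

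**Figure D1:**
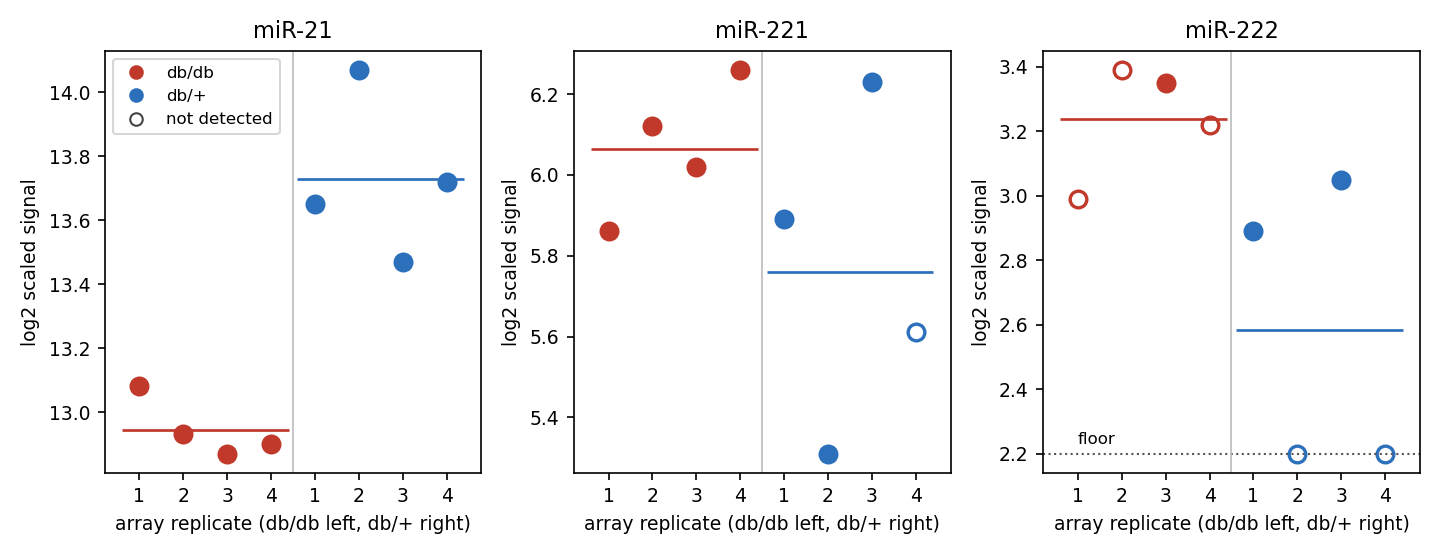
Log2 scaled signal of miR-21, miR-221 and miR-222 (vertical axes, each with its own range) on the 4 db/db arrays and the 4 db/+ arrays (horizontal axis); open circles were not called detected, lines are means of 4 arrays, and the dotted line is the floor of 2.2. The strains are apart for miR-21 (12.87 to 13.08 in db/db, 13.47 to 14.07 in db/+), and overlap for miR-221, while for miR-222 both dim db/+ arrays lie at the floor.

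The plot of levels by array shows that the db/db values sat close together for miR-21 and miR-221, and that the db/+ values were the wider ones. The brightness before scaling differed far more. The miR-21 signal before scaling was 7339, 8323, 7454 and 8120 on the db/db arrays, against 72355, 9687, 17827 and 2842 on the db/+ arrays. On that scale the strains overlapped, since db/+ replicate 4 was below every db/db array and the other db/+ arrays were above them. The miR-221 signal before scaling was 49.1, 74.1, 64.5 and 81.4 in db/db livers, against 333, 22.4, 119 and 10.2 in db/+ livers. The db/+ arrays came in the same order for both miRNAs, replicate 1 highest, then replicates 3, 2 and 4, which was also the order of their scaling factors.

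The probes of each member stand for targets of slightly different length, and those of miR-21 were read one by one. The probe that pairs with 20 bases of miR-21 averaged a log2 level of 13.71 ± 0.1 in db/db and 14.43 ± 0.36 in db/+ livers (SD, n = 4 each). The probe that pairs with 19 bases averaged 11.23 ± 0.08 in db/db and 12.16 ± 0.47 in db/+ livers. Both were lower in db/db on each array than on any db/+ array. Taken alone, the brighter probe gave a difference of -0.72 (limma adjusted p = 0.0323). The dimmer probe, an alternative chosen after the data were seen, gave -0.93 (limma adjusted p = 0.0442). Replicate spots of a miR-21 probe varied by 1.64 to 7.65% (coefficient of variation) within an array, none of its 160 spots was saturated and 7 were left out as outliers. The spots of the miR-221 probes varied by 2.44 to 103%, the widest on db/+ replicate 4.

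The ratio between the probes of miR-21 differed between arrays of the same strain. The 20-base probe was brighter than the 19-base probe by 5.72, 5.57, 5.69 and 5.4 times on the db/db arrays, against 3, 7.54, 3.14 and 7.72 times on the db/+ arrays. The db/db ratios were nearly equal. The db/+ ratios lay on both sides of them, replicates 1 and 3 below and replicates 2 and 4 above, and replicates 1 and 3 were the brightest of the 8 arrays. Many miRNAs shared this. Of 84 miRNAs with at least 2 probes, detected on every array, miR-21 included, 80 had a wider range of the ratio of brightest to dimmest probe in db/+ than in db/db, and 37 (44%) had the same placing of db/+ arrays around the db/db arrays as miR-21. The median range of that log2 ratio was 0.11 in db/db and 0.76 in db/+. For miR-221 the log2 ratio of its 20-base over its 19-base probe was 0.85, 0.93, 0.76 and 0.7 in db/db, against 0.75, 0.9, 0.78 and 1.11 in db/+, and the strains overlapped. The difference in miR-21 held past the threshold without db/+ replicates 2 and 4 (-0.61, limma adjusted p = 0.0111) and without db/+ replicates 1 and 3 (-0.95, limma adjusted p = 0.00482), both chosen after the data were seen.

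**Figure D2:**
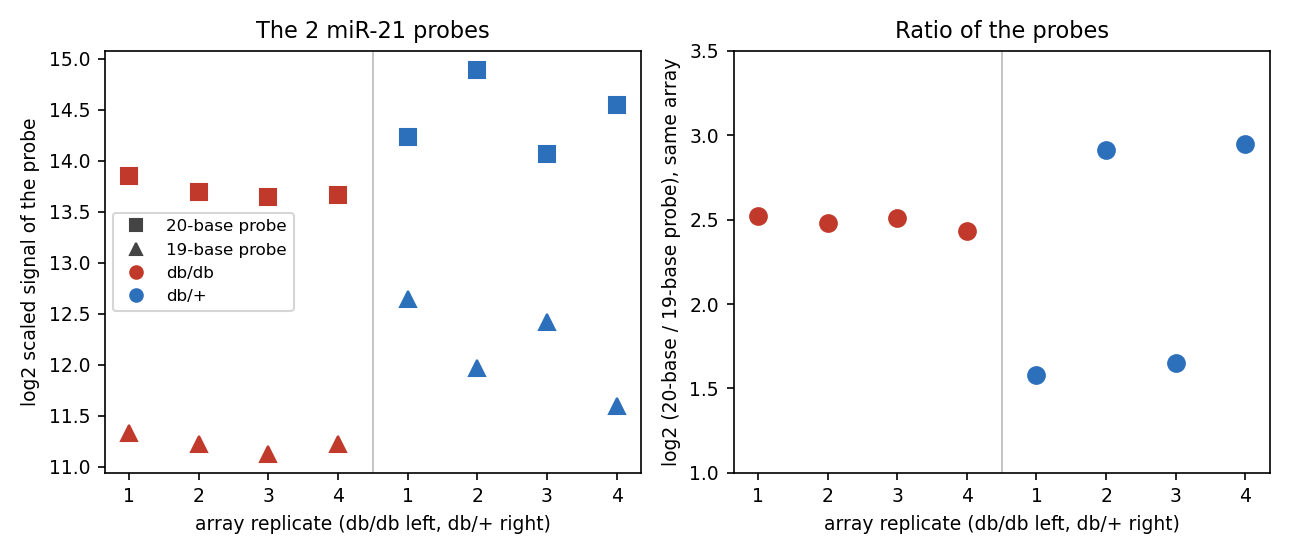
Left, log2 scaled signal of the 20-base probe (squares) and the 19-base probe (triangles) of miR-21 on the 4 db/db and the 4 db/+ arrays; right, the log2 ratio of the probes on each array. Both probes are lower on every db/db array, while the ratio lies between 2.43 and 2.52 in db/db, and at 1.58 and 1.65 or at 2.91 and 2.95 in db/+.

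A ratio of miRNAs on the same array does not depend on the array's scaling factor, and shows unequal change only. The log2 ratio of miR-21 to miR-221 was 7.22, 6.81, 6.85 and 6.64 on the db/db arrays, against 7.76, 8.75, 7.23 and 8.12 on the db/+ arrays. The highest db/db array, replicate 1, lay just under the lowest db/+ array, replicate 3, so the strains were apart, by a narrow margin. Within db/+ the ratio was lower on the bright replicates 1 and 3 than on the dim replicates 2 and 4, and why was not tested. The ratio averaged 6.88 ± 0.25 in db/db and 7.97 ± 0.64 in db/+ livers (SD, n = 4 each), a difference of -1.08 or 2.12-fold lower in db/db (exact two-sided permutation p = 0.0286, the smallest possible). The ratio on db/+ replicate 4 rests on a miR-221 signal that was not detected there, so that array gives no measured ratio. The permutation p includes that array, and miR-221 had entered the test through db/db, where it averaged higher. That p is therefore a description. Without db/+ replicate 4 the difference was -1.03, given without a test. Of the 3 ratios between members this was the only one that could be computed, since the miR-222 signal was below 0 on 2 arrays, and so no adjustment over ratios applied. The difference was -0.38 with normexp (exact permutation p = 0.514), -0.45 with raw median intensities (exact permutation p = 0.486) and -1 with the brightest probe of each alone (exact permutation p = 0.0571).

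miR-21 was also set against miRNAs that mark hepatocytes, a choice made after the data were seen and so given without a test. Its log2 ratio to miR-122 was -2.41, -2.51, -2.68 and -2.52 on the db/db arrays, against -0.92, -1.92, -1.55 and -2.21 on the db/+ arrays. Every db/db array was lower, though db/+ replicate 4 came near. From high to low, the db/+ arrays came in the order of replicates 1, 3, 2 and 4, the order of their scaling factors. Within db/+ this ratio thus still followed the brightness of the array, and why was not tested. The ratio was lower in db/db for all 5 hepatocyte miRNAs, with differences of -0.88 for miR-122, -0.93 for miR-192, -1 for miR-194, -0.76 for miR-148a and -0.23 for miR-101a. Strains did not overlap for 4 of the 5, and overlapped for miR-101a, whose own level was 7.96 ± 0.25 in db/db and 8.51 ± 0.44 in db/+ livers (log2, SD, n = 4 each). All 5 ratios share miR-21, whose own levels did not overlap between the strains, so they are not separate checks. For the levels of all tested miRNAs the share without overlap was 22.8%, with 7.09% lower in db/db. No such share was computed for ratios.

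**Figure D3:**
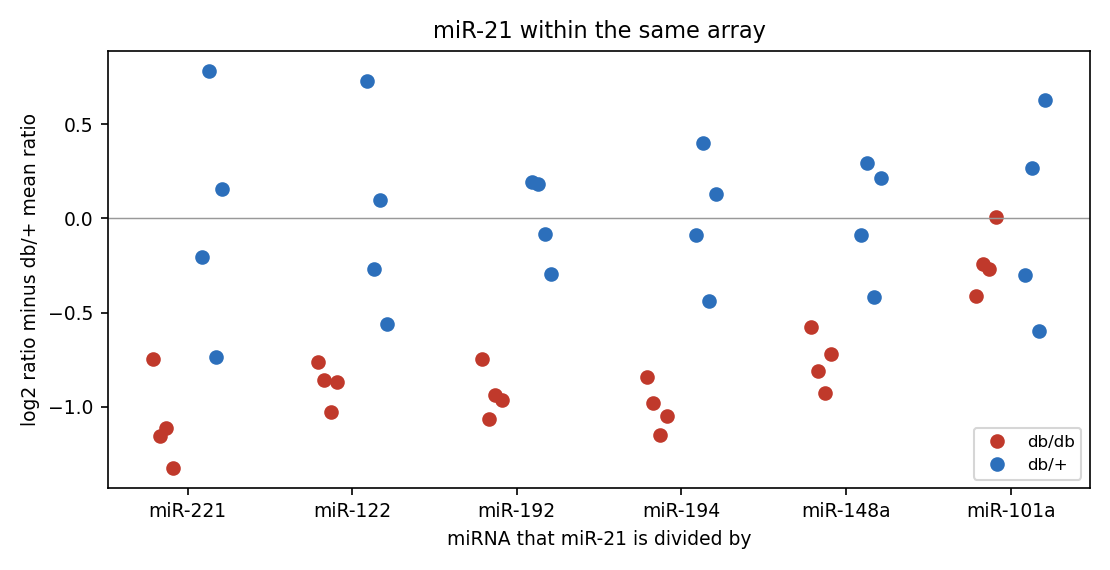
Log2 ratio of miR-21 to miR-221 and to 5 hepatocyte miRNAs on the same array (horizontal axis), shown as the distance from the db/+ mean of that ratio (vertical axis, log2 units), with 4 db/db arrays left of 4 db/+ arrays in each pair. The db/db points lie below all db/+ points for every partner but miR-101a.

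The mouse miRNAs whose levels moved most like those of a member across the 8 arrays were found by the root mean square difference between log2 levels centred on each miRNA's own mean. For miR-21 these were miR-99b (0.149), miR-29c (0.185), let-7e (0.197), miR-362-3p (0.203) and miR-29a (0.252), where the median over the 126 other tested miRNAs was 0.553. let-7e and miR-99b, made from 1 cluster, were among the 7 miRNAs that fell, by 1 and by 0.68 on the log2 scale, whereas miR-29c (-0.51) and miR-29a (-0.43), which repress collagens, did not pass the test. For miR-221 they were miR-30b (0.174), miR-140* (0.196), miR-125b-5p (0.207), miR-194 (0.212) and miR-27b (0.215), against a median of 0.468. Of these, miR-125b-5p alone passed the threshold, 0.54 higher in db/db on the log2 scale (limma adjusted p = 0.0281). For miR-222 the list held miR-365 (0.179), miR-200b (0.186), miR-125b-5p, miR-802 (0.216) and, as the 5th, miR-221 (0.227), but its values rest in part on the floor. These distances are descriptions over 8 arrays that share a slide and a scaling.

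The passenger strand of the miR-21 hairpin was on the array too. The hairpin is given to show how both strands come from 1 precursor. It is that of RefSeq, Mir21a, at chr11:86584067-86584158 on the minus strand of GRCm38.p6, with the mature miR-21 (first) and miR-21* (second) in capitals.

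Mir21a hairpin: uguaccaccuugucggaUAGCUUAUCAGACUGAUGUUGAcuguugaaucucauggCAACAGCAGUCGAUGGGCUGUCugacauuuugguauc

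miR-21* was detected on 0 of 4 db/db arrays and on 1 of 4 db/+ arrays, replicate 1, the brightest. Its scaled signal was -0.82, -0.792, 0.842 and 0.869 on the db/db arrays, against 3.18, 7.34, 1.38 and -11.2 on the db/+ arrays. All but db/+ replicate 2 lay under the floor, so the array could not show whether this strand followed miR-21.

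Other miRNAs linked to growth and liver tumours were read from a list that held the 3 members. Of its 19 miRNAs, all on the array, 18 were detected on some array and 10 were tested. In limma none rose and 1, miR-21, fell (SAM gave the same counts, and at an unadjusted p under 0.05 there was 1 in each direction), and the median difference of the tested ones was 0.06 against 0.15 over all tested miRNAs. This count of 1 in 10 was near the 15% of all tested miRNAs that passed in either direction, and miR-21 itself made it up. miR-93 of the miR-106b cluster, which promotes cell cycle entry, was 6.49 ± 0.15 in db/db and 5.99 ± 0.36 in db/+ livers (log2 level, SD, n = 4 each), with a limma adjusted p of 0.14. miR-19a of the miR-17 cluster was 5.06 ± 0.51 in db/db and 5.51 ± 0.54 in db/+ livers, with a limma adjusted p of 0.353. miR-18b was detected on no array, and miR-17, miR-106a, miR-155, miR-181b and miR-224 on 1 array each.

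Of 12 miRNAs reported to rise in fibrosis, 11 were on the array and 9 were tested. Of these 2 rose and 1, miR-21, fell (the same counts in SAM, and 3 higher and 1 lower at an unadjusted p under 0.05), with a median difference of 0.1. The shares over all tested miRNAs were 9.45% higher and 5.51% lower in db/db. miR-34a, a target of the tumour suppressor p53 that represses Sirt1, was 2.54 higher in db/db on the log2 scale, and miR-31 was 1.09 higher (limma adjusted p = 0.00017 and 0.00321). miR-214, carried by stellate cells, was 3.95 ± 0.24 in db/db and 3.31 ± 0.51 in db/+ livers and did not pass (limma adjusted p = 0.143). Detected on 7 of 8 arrays, miR-214 entered the test through db/db, where it was higher, so its place in the unadjusted count is a description. The list's members thus went in different directions. Of 15 miRNAs reported to fall in fibrosis, 14 were detected on some array and 13 were tested, and in limma none passed in either direction (none in SAM, and 1 lower at an unadjusted p under 0.05). Their median was 0.00, with 7 negative. The lowest p among them belonged to miR-29c, at 10.26 ± 0.14 in db/db and 10.77 ± 0.28 in db/+ livers (limma adjusted p = 0.086), and miR-29b was 9.45 ± 0.5 in db/db and 10.14 ± 0.53 in db/+ livers (limma adjusted p = 0.185). miR-30c, at 10.75 ± 0.23 in db/db and 10.38 ± 0.18 in db/+ livers, lay the other way (limma adjusted p = 0.185).

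**Figure D4:**
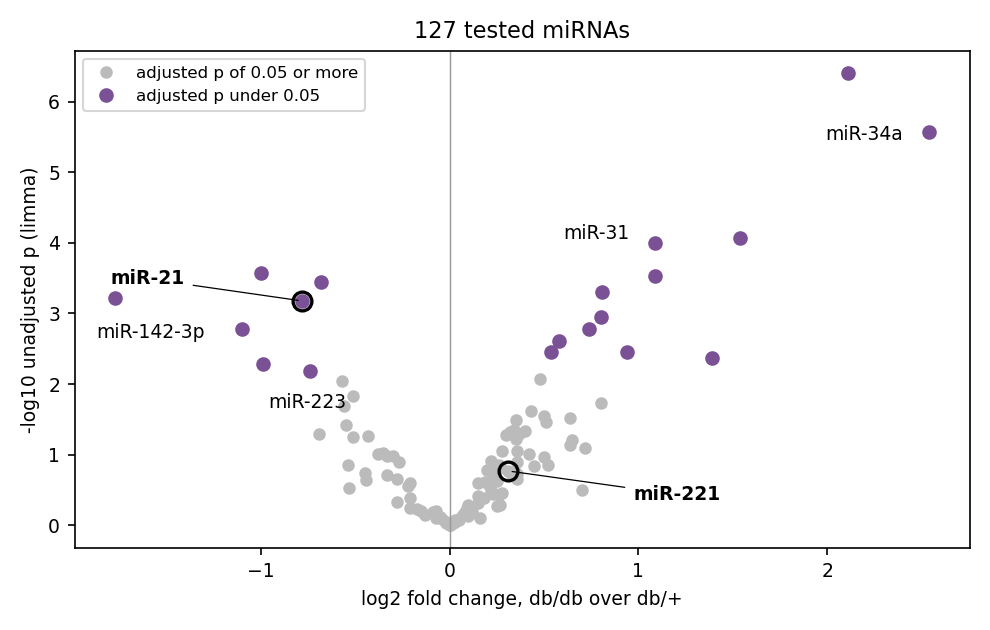
Log2 fold change, db/db over db/+ (horizontal axis), against the -log10 unadjusted limma p (vertical axis) for the 127 tested miRNAs; purple points passed an adjusted p of 0.05 and circles mark the tested members. miR-21 lies among the 7 that were lower in db/db, at -0.78, and miR-221 at 0.31 among those that did not pass.

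Markers of the liver's other cells were read beside miR-21, which leukocytes, endothelial cells and stellate cells also express. Of 7 leukocyte miRNAs, 4 were tested and 2 fell: miR-142-3p by 1.1 and miR-223, a miRNA of neutrophils and macrophages, by 0.74 on the log2 scale (limma adjusted p = 0.0164 and 0.0434), where 5.51% of all tested miRNAs fell. The median of the 4 was -0.64, and the summed scaled signal of the list ran from 321 to 420 in db/db and from 514 to 761 in db/+ livers, without overlap. miR-342-3p, at 6.49 ± 0.21 in db/db and 7.03 ± 0.77 in db/+ livers, and miR-146a, at 5.25 ± 0.22 in db/db and 5.3 ± 0.32 in db/+ livers, did not pass (limma adjusted p = 0.321 and 0.909). miR-142-5p was detected on 2 arrays, and miR-150, of lymphocytes, and miR-155, of activated leukocytes, on 1 each. miR-142-3p and miR-223 were thus lower in the same livers as miR-21, and their part in the miR-21 difference was not tested. With normexp, with raw median intensities and without scaling, limma called 0 miRNAs lower, so both of these calls were lost there. The 5 hepatocyte miRNAs were all tested and none passed in limma or SAM (median 0.1; 1 lower at an unadjusted p under 0.05, miR-101a), with summed signals of 52702 to 57014 in db/db and 31891 to 74277 in db/+ livers. Both arms of the endothelial miR-126 hairpin were tested and passed neither in limma nor in SAM (median 0.19, and 0 at an unadjusted p under 0.05), with summed signals of 1676 to 2085 in db/db and 1488 to 2172 in db/+ livers. Of 5 miRNAs of stellate and smooth muscle cells, 3 were tested, miR-214, miR-143 and miR-199a-5p, and none passed in limma or SAM (median 0.33, and 1 higher at an unadjusted p under 0.05, miR-214), with summed signals of 89.8 to 117 in db/db and 69.1 to 100 in db/+ livers. All 3 were detected on 7 of 8 arrays and entered the test through db/db, so these counts are a description. Of 5 bile duct miRNAs, 2 were tested. Of these miR-200b was called higher, by 0.81 on the log2 scale (limma adjusted p = 0.00788), where 9.45% of all tested miRNAs were called higher. miR-200a had a difference of 0.64 (limma adjusted p = 0.228). Both were detected on 7 of 8 arrays and entered the test through db/db, the strain where they were higher, so this count is a description. The list had summed signals of 76.2 to 104 in db/db and 62.8 to 68.8 in db/+ livers, without overlap, which is a description too. The untested miR-200c, miR-141 and miR-429 were detected on 2, 2 and 3 arrays. Near the floor, miR-200c averaged 2.37 in db/db and 2.57 in db/+ livers, and miR-141 2.32 and 2.54 (log2 level). miR-429 averaged 4.02 in db/db and 3.77 in db/+ livers. The red cell miRNA miR-451 was 10.76 ± 0.39 in db/db and 10.31 ± 0.53 in db/+ livers (log2 level, SD, n = 4 each) and did not pass, and miR-144 of the same cluster was not tested.

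The plot of alternatives shows how the members' differences moved with the processing. Leaving out each array in turn left miR-21 past the threshold in 8 of 8 fits, with differences of -0.87 to -0.67 and limma adjusted p-values of 0.0067 to 0.038. For miR-221 the same fits gave 0.16 to 0.46, with 0 of 8 past the threshold in limma.

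**Figure D5:**
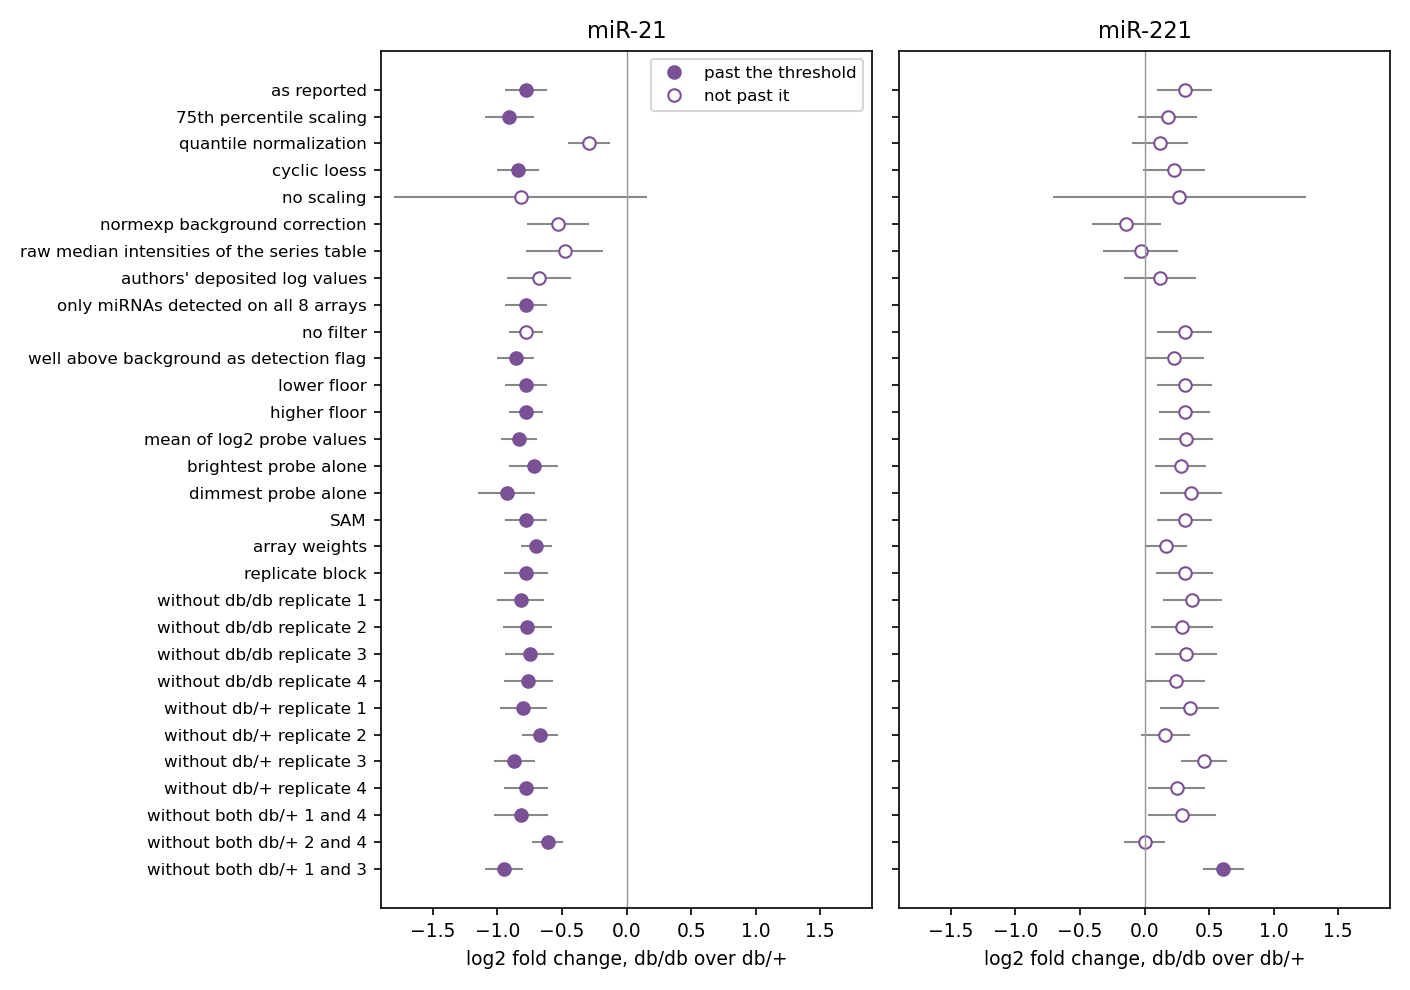
Log2 fold change, db/db over db/+ (horizontal axis, bars ± 1 SE), of miR-21 and miR-221 as reported and under each alternative (vertical axis); filled points passed an adjusted p of 0.05 (for SAM, its own threshold), and miR-221 has no point where it was not tested. All miR-21 values are negative, from -0.95 to -0.29, and miR-221 runs from -0.14 to 0.61.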

How the data were processed

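Total RNA of frozen liver, 100 ng per sample, carried a Cy3 label and was put on a 1-colour mouse miRNA array from Agilent, per the labels. The genotype label put each sample in its group. The series names 4 animals per strain, with 1 array each. The spread behind the p-values thus holds differences between animals and between arrays together, which cannot be told apart. Precision is limited by the number of arrays. Per the file headers, spot intensity has the background subtracted and no scaling across arrays, and was extracted with Agilent Feature Extraction 9.5.3.1, although the series text gives another version. Flags of 0 or 1 for detected, well above background, saturated and outlier spots come from those scanner files, per the file headers. The deposited series table gives each spot's raw median intensity, with the same values as the scanner files in every spot. A score for each of 139 miRNAs was deposited by the authors as well, described as median normalized and log transformed. Its log base is not given in the sources used here and was estimated as 20 from the scanner signals, so log2 differences from it rest on that estimate.

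Left out were control spots and outlier spots (3.42 to 4.84% of 11540 miRNA spots per array). Spots were averaged per probe, then probes per miRNA, up to 4. Arrays were scaled to the median of the 89 miRNAs that all 8 of them detected. The floor of 4.59 was the median, over the 8 arrays, of the lowest signal flagged as detected; it can over- or understate differences of dim miRNAs. To be tested, a miRNA had to be detected on every array of db/db or of db/+, which 127 were; each of them was detected on the 4 db/db arrays. The test was limma 3.58.1 in R 4.3.3 (strain as the only term, two-sided, Benjamini-Hochberg adjustment). SAM, the test the series names, was an alternative, as were other scalings, background corrections, filters, floors, probe summaries, array weights, a replicate block and left-out arrays. Single values were tested by exact permutation. The R package data.table (version 1.17.8) read the files, and matplotlib 3.10.9 drew the plots. The procedure was also run on simulated data. Their noise was independent between arrays and equally wide in both strains, unlike in these data, so no error rate is taken from that run.

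The members and lists were chosen with earlier results of these data known. Named were the members, other miRNAs of the array with their seed or hairpin, the 5 tested miRNAs most like each member, and in each list those past the threshold, filled to 4 by smallest p, besides miR-122. List members that were not tested, and miR-148a, were named in addition, after their values were seen. The array uses older names: its miR-21 and miR-21* are miR-21a-5p and miR-21a-3p in RefSeq.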

Additional observations from a re-analysis of the deposited data

How the results depend on the processing

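Of 29 alternatives, miR-21 kept its direction in all and its call in 23. These were not separate checks, since many left out arrays of the same set. The filter for all 8 arrays, no filter, the lower and higher floor, SAM and the replicate block could not move its difference (-0.78). Among other normalizations, the 75th percentile (-0.91) and cyclic loess (-0.84) kept the call. The call was lost after quantile normalization (-0.29), normexp (-0.53), with raw median intensities (-0.48), in the authors' deposited table (-0.68), without scaling (-0.82, limma adjusted p = 0.993) and without a filter (-0.78, limma adjusted p = 0.0633); the last adjusts over more miRNAs, and for the others the cause was not tested. miR-221 reversed with normexp (-0.14) and raw median intensities (-0.03), and passed without both db/+ 1 and 3 (0.61), where 1 of the 2 db/+ arrays left had not detected it. The untested miR-222 difference moved to -0.26 without scaling, -0.63 with normexp, -0.39 with raw median intensities, 0.00 with the well-above-background flag, 2.16 and 0.00 with the lower and higher floor, 0.24 with the dimmest probe, 0.27 without both db/+ 2 and 4 and 1.04 without both db/+ 1 and 3; leaving out 1 array gave 0.52 to 0.81. It could not be had after quantile normalization or cyclic loess, run on tested miRNAs, nor from the authors' deposited table, which does not list it. For the ratio of miR-21 to miR-221 the permutation p is a description, since 1 array gives no measured ratio. This p was no longer under 0.05 with normexp (-0.38), raw median intensities (-0.45) and the brightest probe (-1). Leaving out 1 array gave ratio differences of -1.33 to -0.82. The 19 calls were 0 without scaling (limma, 1 at an unadjusted p under 0.05; SAM 4), 2 with normexp (2 higher, 0 lower), 1 with raw median intensities (1 and 0), 3 in the authors' deposited table (2 and 1), 4 without a filter, 12 with the higher floor, 11 with the dimmest probe, 42 with array weights (28 and 14; weights of 0.21 for db/+ replicate 4 to 2.86), 29 without both db/+ 2 and 4 and 34 without both db/+ 1 and 3; leaving out 1 array gave 10 (db/db replicate 2) to 21, and 12 without db/db replicate 3. The median difference of all tested miRNAs, 0.15 as reported, ran from -0.18 with normexp to 0.24 without both db/+ 2 and 4. SAM called 18 and kept miR-21. Same-numbered arrays did not deviate together (correlations -0.13, -0.37, 0.04 and 0.31), and with the replicate number as a block miR-21 was -0.78 (limma adjusted p = 0.0188), miR-221 0.31 (limma adjusted p = 0.366) and 17 miRNAs passed. The titles of db/+ replicates 1 and 2 carry no number, so these were numbered in the order of the series. The number equals the slide column on every array, so the block cannot be told apart from the column. Scaling to the median of all mouse miRNAs was not run, since that median was at or below 0 on 3 arrays. The dim signals of miR-222 and miR-21*, near background on most arrays, set the limit of what these arrays measured.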

Other observations

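The authors' deposited table gave scores for miR-21 and miR-221 but listed no miR-222. In the authors' deposited table the miR-21 score was 3.03, 3.041, 2.993 and 2.97 in db/db livers, against 3.241, 3.215, 3.208 and 2.996 in db/+ livers, so the strains overlapped there through db/+ replicate 4. The miR-221 score in the authors' deposited table was 1.375, 1.471, 1.408 and 1.422 in db/db livers, against 1.459, 1.275, 1.535 and 1.292 in db/+ livers, and the strains overlapped. miR-122, the abundant hepatocyte miRNA, had log2 levels of 14.57, 15.99, 15.02 and 15.93 on db/+ replicates 1 to 4, lower on replicates 1 and 3 than on replicates 2 and 4, the same pairs of arrays that the probe ratio of miR-21 set apart.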
